A study of Homo sapiens with 14 samples.

Results

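The ID genes ID1, ID2, ID3 and ID4 code for the inhibitors of DNA binding and differentiation. They were followed through 4 deposited lists of ChIP-seq intervals (chromatin immunoprecipitation with sequencing) and 2 further lists of intervals shared between conditions. A row was taken when its gene symbol was one of these names, which gave 4 of the 26333 symbols in the lists and 21 of the 152412 distinct intervals. The cells were DLD-1, an established human colorectal adenocarcinoma line. Control cells had been transfected with an empty vector. Activator cells carried the plasmid pEGFP-C1199Tiam1, labelled as activating RAC1/PAK1, and received vehicle. Inhibitor cells carried the same plasmid and received EHT 1864, a RAC inhibitor, at 20 microM, so that both treated groups differed from the control by the plasmid. Treatment with vehicle or inhibitor lasted 16 h, and chromatin was precipitated 20 h after transfection with antibodies against STAT5 (C-17) or BCL6 (N-3). The series has 14 libraries. Of these, 9 had values here: 2 of control BCL6, 2 of control STAT5, 2 of activator STAT5 and 3 of inhibitor BCL6. Nothing in the labels ties replicates to separate cultures, and their spread may be technical only. No transcript was measured, and the cell line was taken from the labels without a check of its markers.

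ID proteins have the helix-loop-helix domain of the bHLH (basic helix-loop-helix) transcription factors but lack the basic region that contacts DNA. They pair with the E proteins (TCF3, TCF4 and TCF12) and so keep tissue-specific bHLH factors from binding E-boxes, which holds cells in a proliferating, less differentiated state. Their genes are classical targets of bone morphogenetic protein (BMP) signalling through SMAD proteins, and ID1 is also a known target of STAT5. STAT5 and BCL6 are DNA-binding factors that recognise similar sequences, the first known mainly as an activator of transcription and the second as a repressor.

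The promoter sequences of ID1 and ID3 are shown because the ID1 start was the only ID gene start under a listed interval and because the ID3 promoter was the only one of the ID promoters with a STAT core motif. Both are from RefSeq on GRCh38.p14, 250 bases up to the base before the RefSeq gene start, written 5′ to 3′ on the gene's strand. Capitals mark a match to any of the motifs searched.
ID1, chr20:31605039-31605288, plus strand: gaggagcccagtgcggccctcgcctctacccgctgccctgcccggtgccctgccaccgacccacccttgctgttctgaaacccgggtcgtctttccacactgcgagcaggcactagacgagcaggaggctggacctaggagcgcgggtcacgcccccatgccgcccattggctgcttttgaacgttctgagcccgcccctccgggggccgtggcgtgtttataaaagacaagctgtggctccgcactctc
ID3, chr1:23559502-23559751, minus strand: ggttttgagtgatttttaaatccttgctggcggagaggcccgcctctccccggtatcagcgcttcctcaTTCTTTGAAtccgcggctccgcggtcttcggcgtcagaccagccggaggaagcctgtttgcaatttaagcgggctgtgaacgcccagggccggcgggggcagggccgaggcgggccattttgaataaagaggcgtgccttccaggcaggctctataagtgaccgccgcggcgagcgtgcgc
The intervals below are on GRCh37, and positions were not carried between the builds. Their distances refer to the Ensembl gene starts in the lists. Whether these are the RefSeq starts of the promoters was not checked, so the promoter windows and the distances may refer to different starts. The windows searched ran from 250 bases before to 50 bases after the start of each of 35116 RefSeq promoters, 4 of them those of the ID genes, and both strands were read. The STAT core TTCNNNGAA occurred in 7.66% of all windows and in that of ID3, as TTCTTTGAA from position -181 to -173. Forms close to the BCL6 motif were rare: TTCCTAGAA occurred in 0.373% and TTCCNGGAA in 1.15% of all windows, and neither occurred at an ID gene. These forms overlap the STAT core, since each of them is also a match to it. The E-box CANNTG occurred in 68.7% of all windows. The ID2 promoter held 1 (CAGCTG at -205 to -200), the ID4 promoter held 1 (CAGCTG at -21 to -16), and those of ID1 and ID3 held none. The ID promoters had a GC content of 66% (ID1), 69.2% (ID2), 62% (ID3) and 78.8% (ID4), against a median of 58% over all promoters. A match describes the letters only, and its absence says nothing about binding.

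Each interval has 1 whole-number value per library, read here as a count of reads because the file headers do not name the quantity. In the control lists a nonzero value in either library was enough for an interval to be listed, whereas every interval of the treated lists has 2 or more in each of its libraries. The numbers of intervals therefore do not compare occupancy between control and treated cells. The lists hold intervals from 3000 bp before to 1000 bp after a gene start. The deposited distance runs from the lower coordinate of the interval to the start of the gene, negative for upstream. Library depths are not known here. The values of a library summed to 84510 and 97187 over the control BCL6 list, 81105 and 100945 over control STAT5, 37629 and 44216 over activator STAT5, and 4390, 4606 and 5544 over inhibitor BCL6. These sums are not depths. Values were not tested between groups: 2 libraries against 2 could not go below an exact two-sided permutation p of 0.333.

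In control cells BCL6 intervals lay at ID1, ID2 and ID3 but not at ID4, and STAT5 intervals lay at all 4 genes. ID1 had 6 control BCL6 intervals, ID2 had 4 and ID3 had 3. In the control STAT5 list ID1 and ID4 had 2 each, and ID2 and ID3 had 1 each. After activation 1 STAT5 interval was listed under the symbol of ID1 and 1 under that of ID2. Another lay inside ID3 but is listed for an antisense gene, and it is given with ID3. No BCL6 interval was listed at any of the 4 genes with the inhibitor. Against these counts stand the shares of all 20056 protein-coding genes. A control BCL6 interval was listed for 73.9% of them (3 of the 4 ID genes), a control STAT5 interval for 74.9% (4 of 4) and intervals in both for 63.6% (3 of 4). An activator STAT5 interval was listed for 26.1% (2 of 4) and an inhibitor BCL6 interval for 3.3% (0 of 4). No difference between the 4 ID genes and all genes was tested.

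**Figure D1:**
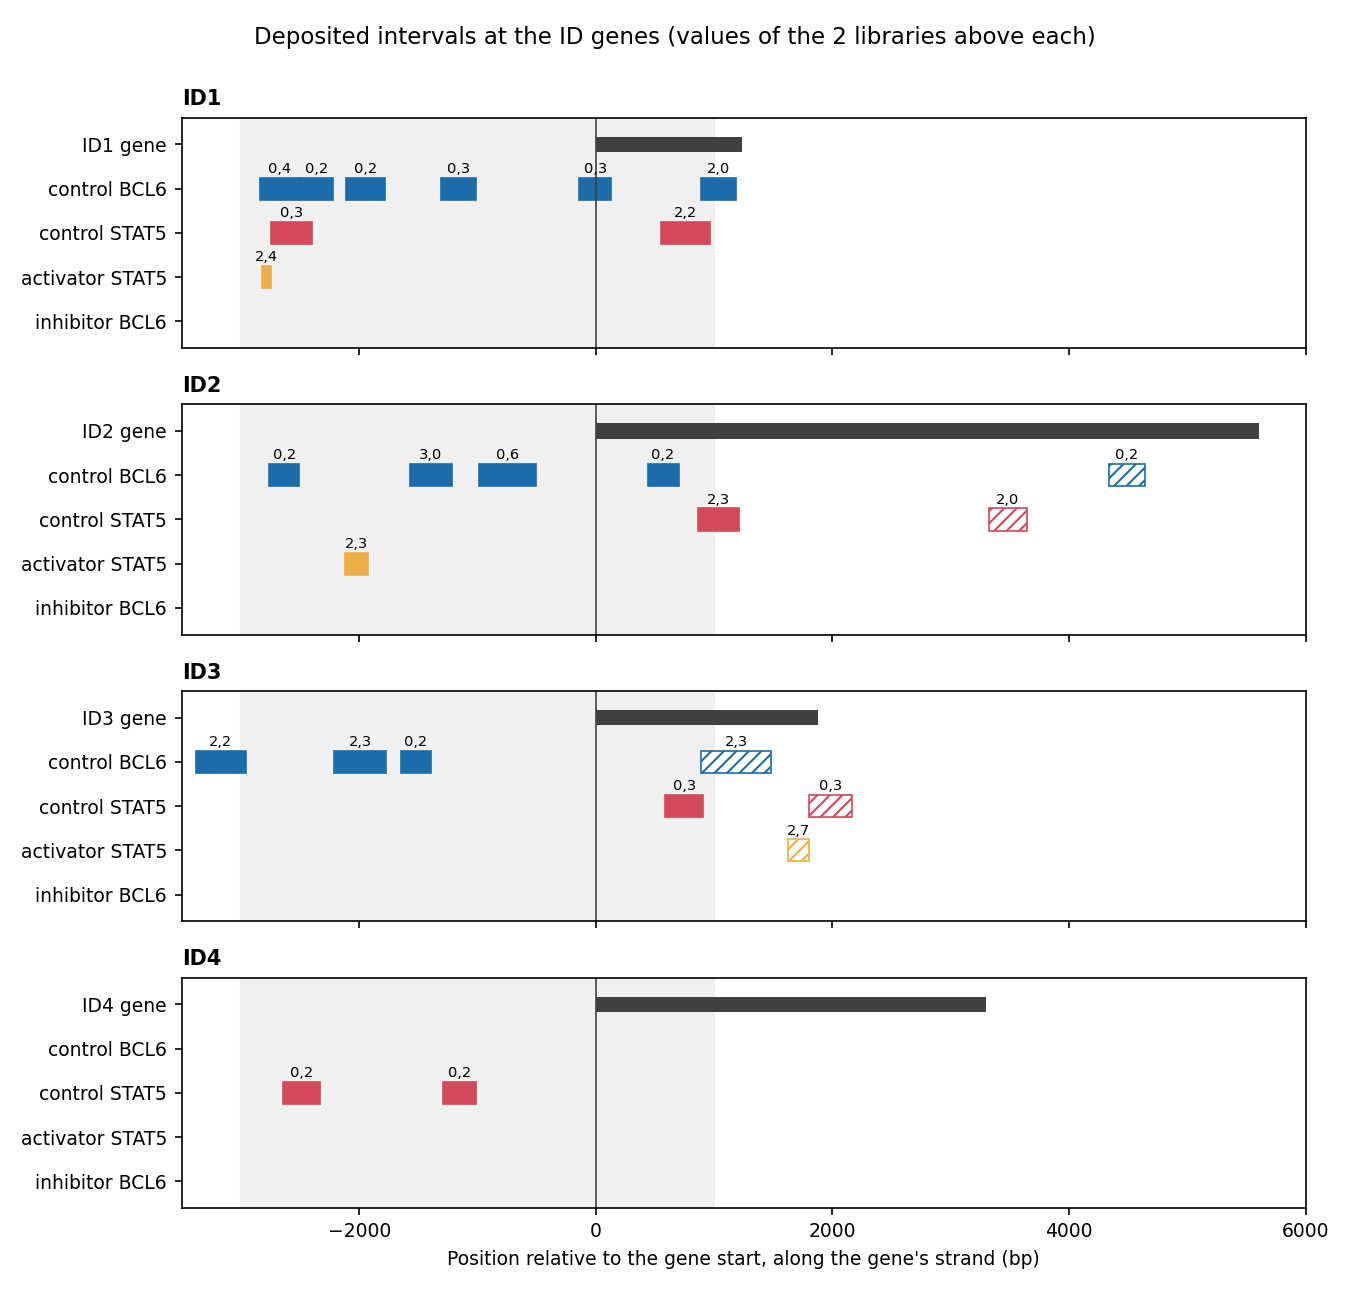
Intervals at each ID gene by list, placed in bp from the gene start along the gene's strand, with the values of both libraries above each interval, the gene body as a dark bar and the window of the lists shaded. Hatched intervals share bases with the gene body but are listed for another gene. ID1 carries 6 control BCL6 intervals and ID4 none.

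ID1 (ENSG00000125968, chr20:30193087-30194318, plus strand) codes for a family member known from the self-renewal of colon cancer-initiating cells, and it had the most intervals. From the distal end, its control BCL6 intervals had distances of -2840, -2496, -2108, -1306, -141 and +892 bp. The most distal, chr20:30190247-30190587 (341 bp), had 0 in replicate 1 and 4 in replicate 2. The next upstream intervals were chr20:30190591-30190868 (278 bp, values 0 and 2), chr20:30190979-30191306 (328 bp, 0 and 2) and chr20:30191781-30192075 (295 bp, 0 and 3). The fifth, chr20:30192946-30193216 (271 bp, 0 and 3), ran from -141 to +129 and was the only interval that covered the start of an ID gene. Replicate 2 alone held these 5 intervals. The last, chr20:30193979-30194268 (290 bp), lay inside the gene body and had 2 in replicate 1 and 0 in replicate 2. Whether it is exonic or intronic was not determined, since no GRCh37 gene models were used.

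The 6 intervals covered 1803 bp, with gaps of 3 to 870 bp between neighbours. Protein-coding genes had a median of 1 control BCL6 interval (mean 1.49), and 65 of them (0.324%) had 6 or more. Genes with at least 5 intervals held by replicate 2 alone made up 0.0947%, a count chosen after the values of ID1 were seen. No control BCL6 interval at ID1 had a value in both libraries. ID1 thus stood high in the number of its intervals and had no interval that the libraries shared. Sharing was uncommon in general: 9.19% of the whole control BCL6 list had a value in both libraries.

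STAT5 had 2 intervals at ID1 in control cells. The upstream one, chr20:30190346-30190690 (345 bp, distance -2741), had 0 and 3, and the one inside the gene, chr20:30193642-30194053 (412 bp, distance +555), had 2 and 2. The upstream interval shared 242 bp with the most distal control BCL6 interval, which is 71.0% of the shorter of them, and 100 bp with its neighbour. The interval inside the gene shared 75 bp (25.9%) with the BCL6 interval there. In control cells, then, 3 of the 6 BCL6 intervals at ID1 overlapped a STAT5 interval, at both ends of the locus. Among protein-coding genes 35.4% had such an overlap, and 1 of the 4 ID genes did by symbol, ID1. An overlap of 17 bp inside ID3, with a BCL6 interval listed for another gene, is given with ID3.

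**Figure D2:**
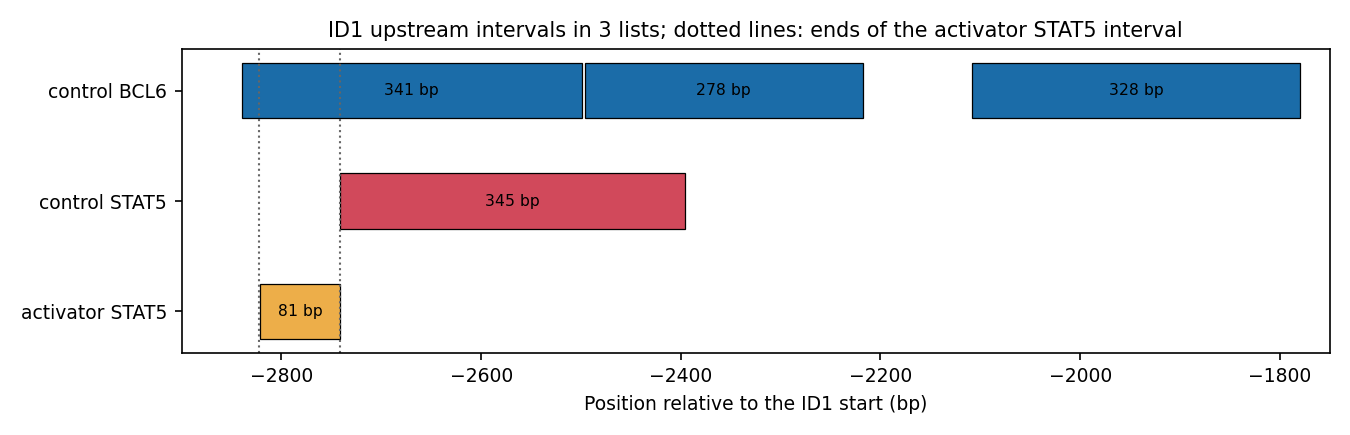
The distal upstream intervals of ID1 in 3 lists, in bp from the ID1 start, with the width of each. The activator STAT5 interval of 81 bp lies wholly under the control BCL6 interval of 341 bp and ends where the control STAT5 interval of 345 bp begins.

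With the activator, STAT5 was listed at chr20:30190265-30190345 (distance -2822), an interval of 81 bp with 2 in replicate 1 and 4 in replicate 2. All 81 bp lay inside the most distal control BCL6 interval (values 0 and 4), and the deposited list of shared intervals gives the same values. An activator STAT5 interval on a control BCL6 interval was listed for 7.43% of protein-coding genes and for 1 of the 4 ID genes. By interval, 3593 of the 14047 in the activator STAT5 list lay on a control BCL6 interval. The last base of the ID1 activator STAT5 interval, 30190345, directly preceded the first base of the control STAT5 interval at 30190346 (values 0 and 3). STAT5 was thus listed in control cells at the next base, and the plot of the distal upstream intervals of ID1 shows the contact. Of all 14047 activator STAT5 intervals, 2651 (18.9%) were directly adjacent to a control STAT5 interval and 0 shared a base with one. The adjacent intervals had a median width of 89 bp and the others of 157 bp. Contact of this kind was listed for 5.95% of protein-coding genes, and contact together with overlap on a control BCL6 interval, as at ID1, for 1.6%. Of the 3593 activator STAT5 intervals on a control BCL6 interval, 716 (19.9%) had such contact, near the 18.9% of all of them. A width of at most 81 bp was found in 30.4% of the activator STAT5 intervals, and 2 in one library with at least 4 in the other in 25.3%. Whether STAT5 binding at ID1 changed with the activator was not tested.

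ID2 (ENSG00000115738, chr2:8818976-8824583, plus strand), which also binds the retinoblastoma protein RB1, had 4 control BCL6 intervals. Distances and places inside the gene refer to this Ensembl range, which was not compared with the RefSeq start of ID2. The most distal, chr2:8816214-8816471 (258 bp, distance -2762), had 0 and 2. The next, chr2:8817403-8817760 (358 bp, distance -1573), had 3 in replicate 1 and 0 in replicate 2. The interval chr2:8817989-8818473 (485 bp, distance -987) had 0 and 6. That value of 6 was the highest control value at any ID gene, and replicate 1 had 0 at the same place. Replicate 2 had 6 or more in 0.825% of all control BCL6 intervals, including those where it had 0. The fourth, chr2:8819414-8819675 (262 bp, distance +438), lay inside the gene and had 0 and 2. Gaps ran from 228 to 940 bp, and 6.73% of protein-coding genes had as many control BCL6 intervals or more.

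The control STAT5 interval of ID2, chr2:8819844-8820183 (340 bp, distance +868), had 2 and 3, so both libraries held it. It lay inside the gene, 168 bp from the nearest control BCL6 interval, and no BCL6 and STAT5 intervals of control cells overlapped at ID2. The activator STAT5 interval was chr2:8816858-8817053 (196 bp, distance -2118), with 2 and 3. It fell between the control BCL6 intervals with distances -2762 and -1573, 386 and 349 bp away, and lay 2790 bp from the control STAT5 interval. At ID2, unlike ID1, the activator STAT5 interval therefore touched no control interval of either antibody. Whether these loci differ beyond the counting error of values this small was not tested.

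ID3 (ENSG00000117318, chr1:23884410-23886285, minus strand) had 3 control BCL6 intervals, all upstream. They were chr1:23887679-23887931 (253 bp, distance -1394, values 0 and 2), chr1:23888055-23888497 (443 bp, distance -1770, values 2 and 3) and chr1:23889246-23889667 (422 bp, distance -2961, values 2 and 2). The intervals at -1770 and -2961 were the only control BCL6 intervals listed under an ID symbol with a value in both libraries. On this strand an interval extends farther upstream than its distance, so that the most distal reached -3382. None of them came within 1000 bp of the ID3 start. As many control BCL6 intervals or more were listed for 20.4% of protein-coding genes.

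In the control STAT5 list ID3 had chr1:23885376-23885700 (325 bp, distance +909) inside the gene, with 0 and 3. The same interval is listed for ENSG00000247524, a gene without a symbol on the plus strand (chr1:23884411-23886020) whose coordinates lie within ID3. An interval has no strand, so it cannot be assigned to one gene of the pair. Under the ID3 symbol no activator STAT5 interval was listed. A search by position, added after the data were seen, found 3 more intervals that are listed for ENSG00000247524 and share bases with ID3. The control BCL6 interval chr1:23884808-23885392 (585 bp) had 2 and 3 and shared 17 bp (5.23% of the shorter) with the control STAT5 interval above. The control STAT5 interval chr1:23884120-23884480 had 0 and 3 and reached 71 bp into the 3′ end of ID3. The activator STAT5 interval chr1:23884481-23884658 (178 bp) lay wholly inside ID3, from +1627 to +1804, with 2 in replicate 1 and 7 in replicate 2. Its 7 was the highest activator value inside or at an ID gene. It was directly adjacent to the control STAT5 interval that ends at 23884480, as at ID1, and lay 149 bp from the control BCL6 interval, so it is not in the shared list.

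ID4 (ENSG00000172201, chr6:19837618-19840915, plus strand), best known from neural development, was the ID gene without a control BCL6 interval. The nearest one lay 78578 bp from its distal control STAT5 interval. That interval, chr6:19834975-19835284 (310 bp, distance -2643), had 0 and 2, and the other, chr6:19836324-19836607 (284 bp, distance -1294), had 0 and 2. Both rested on the lowest nonzero value in replicate 2. Genes with a control STAT5 but no control BCL6 interval made up 11.3% of protein-coding genes, and 2 or more control STAT5 intervals were listed for 48.0%.

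No listed inhibitor BCL6 interval lay close to any of the 4 genes. The nearest to a gene start lay 203 kb from ID1, 420 kb from ID3, 953 kb from ID2 (listed for YWHAQ) and 1886 kb from ID4. An inhibitor BCL6 interval on a control STAT5 interval was listed for 0.863% of protein-coding genes and for 0 of the 4 ID genes. The inhibitor list is short, with 1652 intervals, and asks for a value in all 3 libraries, so an absence here is not a measured loss of BCL6. It also holds only intervals near gene starts, so these distances do not measure stretches free of BCL6.

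**Figure D3:**
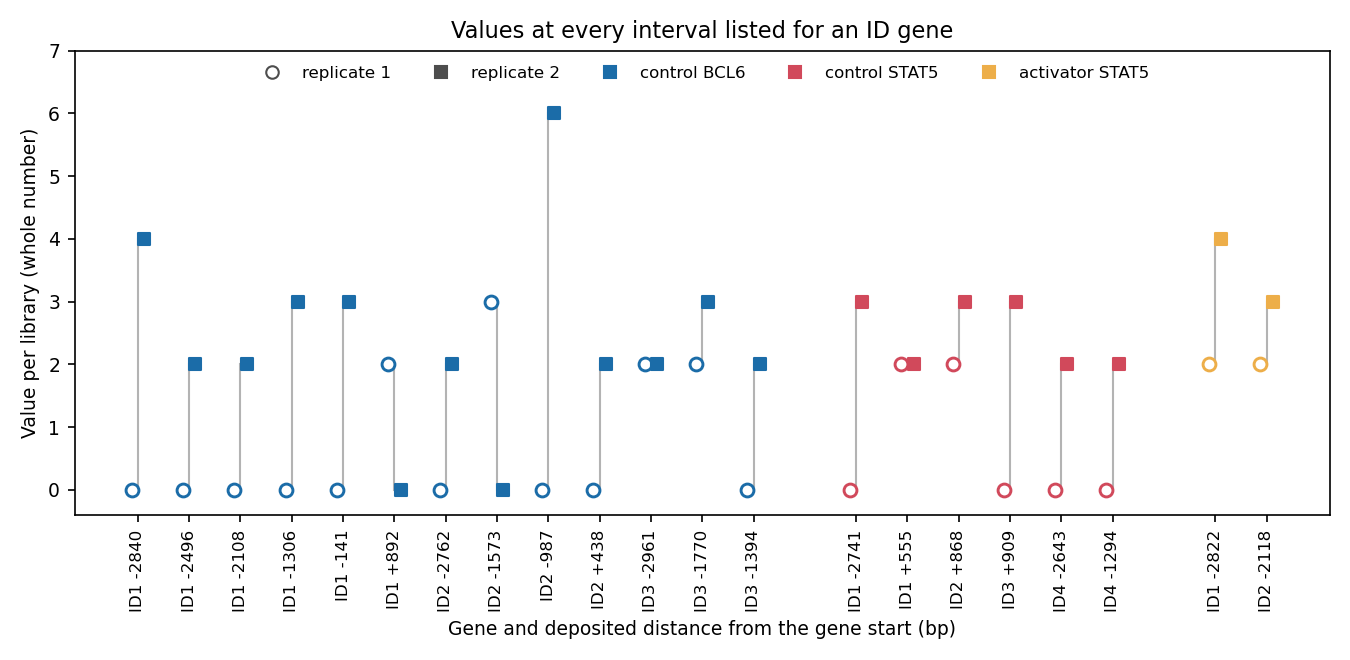
Values of replicate 1 (open circles) and replicate 2 (filled squares) at each interval listed for an ID gene, named by gene and deposited distance, on a linear axis from 0. In control cells replicate 2 is above replicate 1 at most intervals, with the highest value of 6 at ID2.

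The libraries of a control group seldom held the same ID interval. Of the 13 control BCL6 intervals, 4 had a value in replicate 1 (sum 9) and 11 in replicate 2 (sum 31). Replicate 2 alone held 9 (69.2%), against 48.9% of the whole list, replicate 1 alone held 2 (15.4%, against 41.9%), and 2 had a value in both (15.4%, against 9.19%). The control STAT5 intervals leaned the same way: replicate 1 had a value at 2 of 6 (sum 4) and replicate 2 at 6 of 6 (sum 15). Replicate 2 alone held 4 of these 6 (66.7%, against 50.7%), and 2 had a value in both (33.3%, against 9.34%). Most control intervals at the ID genes were therefore seen in replicate 2 alone, the library with the larger summed value in each control group. Its part in the counts was not tested by any scaling, since depths were not used here. Widths were ordinary: the median was 295 bp (253 to 485) for control BCL6 and 332.5 bp (284 to 412) for control STAT5, against 305 and 304 bp over the whole lists.

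**Figure D4:**
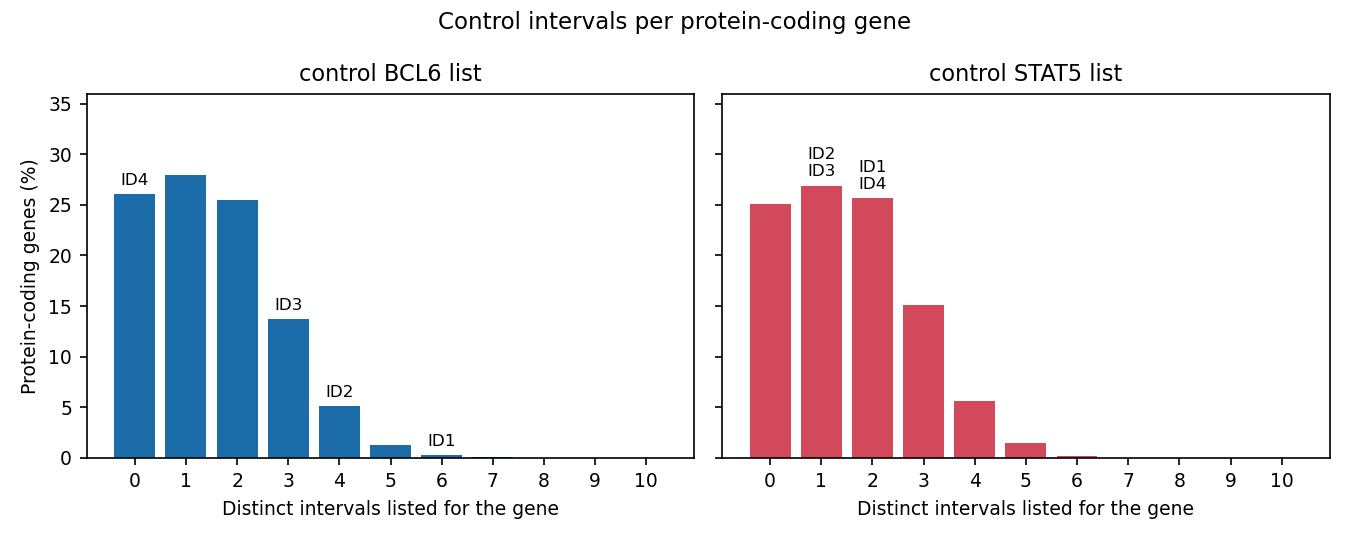
Share of all protein-coding genes (%) by the number of distinct intervals listed for the gene, in the control BCL6 and control STAT5 lists, with the ID genes named above their bar. ID1 with 6 control BCL6 intervals sits in the far tail, while all ID genes have 1 or 2 control STAT5 intervals.

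Beside the ID genes, 77 genes around the ID proteins were followed in 4 lists: E proteins, other bHLH factors, the BMP-SMAD pathway, and other ID partners and effectors. They are called partner genes for short, though the BMP-SMAD genes act upstream of the ID genes and not all others bind ID proteins. A control BCL6 interval was listed for 61 of the 77 (79.2%), against 73.9% of protein-coding genes, and a control STAT5 interval for 63 (81.8%), against 74.9%. An activator STAT5 interval was listed for 19 (24.7%), against 26.1% of protein-coding genes, and an inhibitor BCL6 interval for 5 (6.49%), against 3.3%. An activator STAT5 interval on a control BCL6 interval was listed for 7 (9.09%), against 7.43%, and an inhibitor BCL6 interval on a control STAT5 interval for 1 (1.30%), against 0.863%. The partner genes thus lay near the shares of all genes in the activator list, and the shares in the inhibitor lists rest on 5 genes or fewer. Without control BCL6 replicate 2 the 7 genes become 1.

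**Figure D5:**
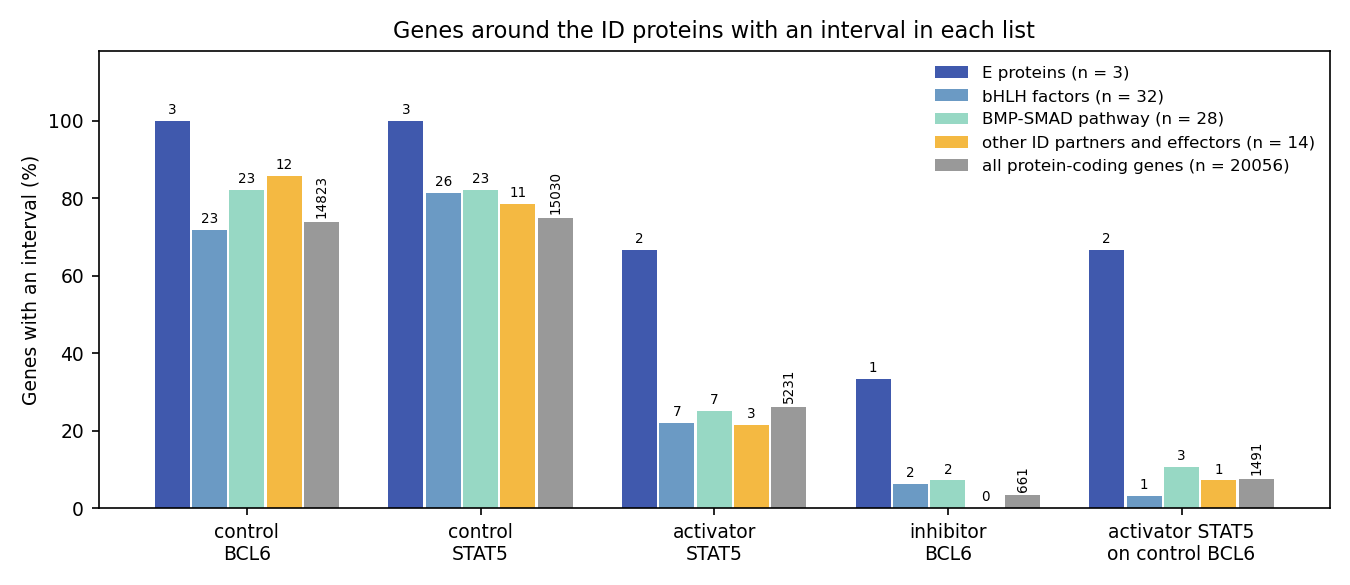
Share of genes (%) with an interval in each list, for the 4 lists of genes around the ID proteins and for all protein-coding genes, with the number of genes above each bar. The bars of the E proteins rest on 3 genes; the other lists lie near all protein-coding genes in the activator STAT5 list.

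The 3 E proteins, the direct partners of ID proteins, all had a control BCL6 and a control STAT5 interval, against 73.9% and 74.9% of protein-coding genes. An activator STAT5 interval was listed for 2 of them, TCF3 and TCF4, against 26.1%, and not for TCF12. At both genes it lay on a control BCL6 interval. Of the 5231 protein-coding genes with an activator STAT5 interval, 1491 had one on a control BCL6 interval. With 3 genes in the list, these shares were not tested. At TCF3 it was chr19:1654017-1654136 (distance -1691) with 2 and 3, sharing 77 bp with a control interval of 0 and 4. At TCF4 it was chr18:53305855-53306054 (distance -2670) with 3 and 2, sharing 95 bp with a control interval of 0 and 3. TCF4 also had an inhibitor BCL6 interval at +140, with 2, 2 and 2, which overlapped no control STAT5 interval. An inhibitor BCL6 interval was listed for 3.3% of protein-coding genes. As at ID1, the control BCL6 intervals under the activator STAT5 intervals of TCF3 and TCF4 had no value in replicate 1. The same was so at ASCL2, BMP10, BMP4 and RGMB, and replicate 2 alone held 48.9% of the whole control BCL6 list.

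Of the 32 other bHLH factors, 23 had a control BCL6 interval (71.9%, against 73.9% of protein-coding genes) and 26 a control STAT5 interval (81.25%, against 74.9%). An activator STAT5 interval was listed for 7 (21.9%, against 26.1%) and an inhibitor BCL6 interval for 2 (6.25%, against 3.3%). ASCL2, which maintains intestinal stem cells, was the 1 with an activator STAT5 interval on a control BCL6 interval: chr11:2293317-2293591 (distance -1135, values 3 and 2) shared 144 bp with a control interval of 0 and 2. HES1, a repressor downstream of Notch, was the 1 with the opposite overlap. Its inhibitor BCL6 interval chr3:193854272-193854355 (84 bp, distance +337, values 2, 2 and 2) lay wholly on a control STAT5 interval with 0 and 3. HES1 also had an activator STAT5 interval at -1070 (2 and 2), which was neither on a control BCL6 interval nor adjacent to a control STAT5 interval. The other activator STAT5 intervals in this list included those of HAND2 at -427 (3 and 3), HES6 at -598 (2 and 2), HES7 at +407 (2 and 2) and -2074 (2 and 9), and NEUROG3 at -2919 (3 and 2). HEYL, another Notch target, had an inhibitor BCL6 interval at -184 with 4, 2 and 4.

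The BMP-SMAD pathway, which switches ID genes on, had a control BCL6 interval at 23 and a control STAT5 interval at 23 of its 28 genes (82.1% each, against 73.9% and 74.9% of protein-coding genes). With the activator, a STAT5 interval was listed for 7 (25%, against 26.1%) and an inhibitor BCL6 interval for 2 (7.14%, against 3.3%). Of its ligands, BMP4 had 4 activator STAT5 intervals. That at chr14:54422672-54422893 (distance +882, values 3 and 3) shared 99 bp with a control BCL6 interval of 0 and 2. That at chr14:54426117-54426183 (distance -2563, values 2 and 2) was directly adjacent to a control STAT5 interval, and those at -1368 (2 and 3) and -1480 (2 and 4) were in neither position. BMP4 also had an inhibitor BCL6 interval at -1074 with 2, 2 and 2. BMP10 had an activator STAT5 interval at chr2:69100137-69100240 (distance -1488, values 2 and 5) that shared 49 bp with a control BCL6 interval of 0 and 2, another at -258 with 2 and 11, and an inhibitor BCL6 interval at +120 with 3, 2 and 3. Both inhibitor BCL6 intervals of the pathway were at these ligands, and neither overlapped a control STAT5 interval. Of all 1652 inhibitor BCL6 intervals, 391 did. With 2 genes, no pattern among the ligands was tested.

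Among the co-receptors and receptors, RGMB had chr5:98104080-98104155 (distance -920, values 2 and 3), all 76 bp of it on a control BCL6 interval of 0 and 2. The type II receptor ACVR2B had an activator STAT5 interval of 24 bp at -506 with 4 and 7, and the type I receptor BMPR1B had one at -1390 with 4 and 6. The secreted antagonist CHRD had one at -2766 with 2 and 2. The signal transducer SMAD5 had intervals at +791 (3 and 2) and +972 (2 and 2). None of these last 4 genes had an activator STAT5 interval on a control BCL6 interval or adjacent to a control STAT5 interval.

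Of the 14 other partners and effectors, 12 had a control BCL6 interval (85.7%, against 73.9% of protein-coding genes) and 11 a control STAT5 interval (78.6%, against 74.9%). With the activator, a STAT5 interval was listed for 3 (21.4%, against 26.1%) and an inhibitor BCL6 interval for 0, against 3.3%. CAV1, the caveolin that binds ID1, had chr7:116165796-116165963 (168 bp, distance +956, values 3 and 4) wholly on a control BCL6 interval of 2 and 4. It was the 1 of the 7 partner genes whose control BCL6 interval had a value in both libraries. ELK4, an ETS factor of the kind that ID proteins bind, had chr1:205600126-205600205 (80 bp, distance +964, values 3 and 4) directly adjacent to a control STAT5 interval. RBL1, a relative of RB1, had intervals at -2858 (2 and 5) and -2900 (2 and 2), in neither position.

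The partner genes most like ID1 in their numbers of intervals over the 6 lists were CAV1, TCF3 and TCF4, each at a sum of absolute differences of 3. All had 1 activator STAT5 interval, on a control BCL6 interval, and 4, 3 and 5 control BCL6 intervals. These numbers were part of the measure, so this likeness follows in part from the way the genes were chosen. For ID2 they were ACVR2B with a difference of 0, MYF6 with 1 and BMPR1B with 2, and 8 partner genes were at most that far. ACVR2B had the same numbers as ID2, with 4 control BCL6, 1 control STAT5 and 1 activator STAT5 interval. Presence in the same of the 6 lists is a different measure, met by 6.29% of protein-coding genes for ID1 and by 12.9% for ID2. TCF4, with 1 inhibitor BCL6 interval, did not meet it for ID1. The share of all genes within these sums of differences was not computed.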

How the data were processed

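The deposited files are 6 lists of intervals from the authors. Each gives position, width, distance to an Ensembl gene start, gene ID and symbol, and 1 whole-number value per library; the authors' deposited values were read as counts of reads per interval, not normalized, though the file headers do not name them. The submitters' processing notes name CASAVA 1.8.2, Bowtie 0.12.7 and the build GRCh37. How peaks were called, and past which threshold, is not given in the sources. All 9 library columns were matched to samples by condition and library number; replicate numbers follow accession order and pair nothing. Libraries of activator BCL6 and inhibitor STAT5, 5 in all, were not analysed here.

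Distinct intervals were counted once per gene. Overlap meant at least 1 shared bp, and direct adjacency a gap of 0 bp. The overlaps computed from the separate lists gave the same 3593 and 391 intervals as the deposited shared lists. Shares refer to 20056 protein-coding genes of the RefSeq table (GRCh38.p14, names only), of which 17227 matched a symbol in the lists. No count model or set test was used: the results are counts and values. The search for overlapping and nearest intervals was tested on simulated intervals, and the counts per gene were not (Python 3.11.15, pandas 2.3.3, numpy 2.4.6, matplotlib 3.10.9).

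The ID genes, the partner lists and the comparisons were chosen with earlier results of these data known. Genes named were the ID genes, partner genes with a treated interval that overlapped or touched a control interval, up to 5 others per list in alphabetical order, and the 3 most like ID1 and ID2. Alternatives were a value of at least 3, a distance within 1000 bp, a value in both control libraries, a width of at least 50 bp, an overlap of 50% of the shorter interval, gaps of up to 10 or 100 bp, leaving out each library, and a search by position added after seeing the data.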

Additional observations from a re-analysis of the deposited data

How the results depend on the processing

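Over 9 counts, 64 alternatives were computed: 41 stayed within 1.5 times of the reported count and 23 did not. The 13 control BCL6 intervals at the ID genes became 6 with a value of at least 3, 4 within 1000 bp of the gene start and 2 with a value in both libraries; leaving out a library gave 4 (without control BCL6 replicate 2) to 11. The 6 control STAT5 intervals became 3, 3 and 2 under the same settings, and 2 (without control STAT5 replicate 2) to 6 without a library. The 2 activator STAT5 intervals became 0 when each library needed 3 or more and 0 within 1000 bp, and stayed 2 (lowest 2, highest 2) without either library, since the deposited list already asks for both. The overlap of activator STAT5 with control BCL6 at ID1 (1) became 0 when each activator library needed 3 or more and 0 with control intervals held by both libraries; leaving out a library gave 0 (without control BCL6 replicate 2) to 1. The 3 control BCL6 intervals on control STAT5 became 1 at an overlap of 50%, 0 when each library needed 3 or more and 1 with intervals held by both libraries, and 1 (without control BCL6 replicate 2 or control STAT5 replicate 2) to 3 without a library. The 7 partner genes became 4 at an overlap of 50%, 2 with a value of at least 3, 1 with control intervals held by both libraries, and 1 (without control BCL6 replicate 2) to 7 without a library. By position, the 1 activator STAT5 interval adjacent to a control STAT5 interval became 2, with the one inside ID3. The counts of 0 for inhibitor BCL6, at the ID genes and on control STAT5, were 0 under every alternative run. A count of 0 cannot fall under a stricter setting, and leaving out a library of a list that asks for all of them cannot raise it. Most of these alternatives were thus fixed in advance. They are among the 41, which is therefore no measure of stability. Fewer intervals pass each stricter setting by construction. Values of 2 to 4 reads, with unknown depth, limit what a single interval can show. No paired analysis was possible because the replicate numbers come from accession order and the results come from no test.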

Other observations

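Inside the ID2 gene body, 2 intervals were listed for ID2-AS1, an antisense gene (chr2:8806767-8821993, minus strand), and not for ID2. The control BCL6 interval chr2:8823313-8823614 (302 bp) had 0 and 2, and the control STAT5 interval chr2:8822297-8822617 (321 bp) had 2 and 0. They lay 695 bp apart and touched no other interval. Counted with those listed for ENSG00000247524, the ID genes would have 15 control BCL6, 8 control STAT5 and 3 activator STAT5 intervals. TWIST2, a bHLH repressor outside the naming rule and named after its values were seen, had an activator STAT5 interval at -2765 with 2 and 2.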
